A study of Mus musculus with 4 samples.

Results

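The 9 genes described here, Cldn5, Flt1, Pecam1, Slco1a4, Slc2a1, Pdgfrb, Vtn, Rgs5 and Acta2, mark the cells of brain blood vessels and were taken by symbol from the 19465 genes of a spatial count table of mouse brain. All 9 were in the table. The study set 2 wild-type mice beside 2 mice heterozygous for Celsr3, an adhesion receptor of the cadherin family, with no treatment, and its question concerned the striatum. Strain, age and the nature of the Celsr3 allele are not given in the sources used here. Coronal sections of fixed, paraffin-embedded brain were read with a probe-based Visium CytAssist assay, in which probes for each gene are captured on a grid of barcoded spots.

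The spots fell into 4 sets by the ending of their barcode, and 0 of the sets could be tied to an animal or a genotype. No comparison of genotypes was therefore made, and every value is given per barcode set. Each set has no replicate, so no p-value, SD or mean over sets is given, and intervals are at 95% and reflect the counting of molecules alone.

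Brain capillaries are tubes of endothelial cells sealed by tight junctions, which form the blood-brain barrier and move glucose and other solutes through dedicated carriers. Pericytes sit on the outside of capillaries and share their basement membrane, and contractile smooth muscle cells wrap arterioles and arteries, which run in the meninges before they enter the brain. Of the 9 genes, Cldn5 encodes the tight junction protein claudin-5, Pecam1 an adhesion molecule between endothelial cells, Flt1 a receptor for vascular endothelial growth factor, Slc2a1 the glucose carrier GLUT1 and Slco1a4 an organic anion carrier. Slc2a1 and Slco1a4 are also expressed in choroid plexus epithelium. Pdgfrb encodes the receptor through which endothelial PDGF-B recruits pericytes and is also expressed by fibroblasts, Vtn the matrix protein vitronectin, made in brain by pericytes, Rgs5 a regulator of G protein signalling in mural cells, and Acta2 the smooth muscle actin of arterial walls.

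Sets 1 to 4 held 3055, 2808, 3445 and 3294 spots, with median depths of 52481, 38181, 44966 and 26444 counts per spot. The same barcode can occur in several sets because the grid repeats, and 1613 of 4744 barcodes occurred in all 4. After 1 spot with fewer than 500 counts was left out, 12293 of 12601 spots were assigned to 14 areas by the mean standardized level of area marker genes, none of them among the 9. The lateral septum had at least 20 spots in sets 2, 3 and 4, the thalamus in sets 1 and 4, and the choroid plexus in sets 1 and 3, whereas the other 11 areas had them in every set. Celsr3 itself stood at 31.7, 46.8, 26.0 and 47.2 CPM in sets 1 to 4, where CPM is a gene's counts per 1000000 counts summed over the same spots, and no set was given a genotype from these values. A spot can hold several cells, so fewer vascular cells and less RNA per vascular cell cannot be told apart. Probes of different genes differ in yield, so levels are compared within a gene and never between genes.

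Promoter windows of 300 bases, 250 before to 50 after the start site, were present for 7 of the 9 genes in the RefSeq table for GRCm38.p6, all but Pecam1 and Pdgfrb. The 4 printed here stand for the patterns described below: Cldn5 and Flt1 for the endothelium, Slc2a1 for its level at the ventricle lining, and Acta2 for the arterial wall. The windows lie at chr16:18776597-18776896 on the plus strand for Cldn5, chr5:147725962-147726261 on the minus strand for Flt1, chr4:119108495-119108794 on the plus strand for Slc2a1 and chr19:34255324-34255623 on the minus strand for Acta2. Capitals mark matches, on either strand, to TATAAA, to GGGCGG, to TGACGTCA and to a CArG-like box. The CArG box, the site of serum response factor, is CC and GG around 6 bases that are each A or T, and the CArG-like box allows 1 of the 6 to be C or G.
Cldn5: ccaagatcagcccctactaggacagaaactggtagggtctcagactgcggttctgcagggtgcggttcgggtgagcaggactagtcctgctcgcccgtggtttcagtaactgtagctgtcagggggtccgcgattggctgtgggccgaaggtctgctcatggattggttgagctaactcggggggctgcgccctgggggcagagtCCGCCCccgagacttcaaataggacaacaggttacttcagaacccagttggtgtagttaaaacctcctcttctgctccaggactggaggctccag
Flt1: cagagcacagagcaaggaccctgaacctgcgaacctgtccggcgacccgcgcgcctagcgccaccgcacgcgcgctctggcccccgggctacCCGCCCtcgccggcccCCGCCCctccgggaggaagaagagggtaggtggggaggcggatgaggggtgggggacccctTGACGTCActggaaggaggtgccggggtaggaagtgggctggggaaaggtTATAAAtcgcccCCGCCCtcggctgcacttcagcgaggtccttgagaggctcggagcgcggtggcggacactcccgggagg
Slc2a1: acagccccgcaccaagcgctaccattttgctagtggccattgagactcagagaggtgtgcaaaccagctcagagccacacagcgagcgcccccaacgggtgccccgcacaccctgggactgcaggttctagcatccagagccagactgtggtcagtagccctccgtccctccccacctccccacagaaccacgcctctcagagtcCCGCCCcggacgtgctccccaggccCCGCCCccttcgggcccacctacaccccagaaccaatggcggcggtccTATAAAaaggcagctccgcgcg
Acta2: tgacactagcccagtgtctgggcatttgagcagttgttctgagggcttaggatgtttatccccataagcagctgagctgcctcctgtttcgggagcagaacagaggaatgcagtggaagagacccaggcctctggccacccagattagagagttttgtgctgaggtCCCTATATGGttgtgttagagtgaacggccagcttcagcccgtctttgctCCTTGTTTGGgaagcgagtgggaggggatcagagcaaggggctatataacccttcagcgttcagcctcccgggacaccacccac

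The Acta2 window held 2 CArG-like boxes, CCCTATATGG at bases 167 to 176 and CCTTGTTTGG at bases 217 to 226 of the window, and the Slco1a4 window held this motif as well. The motif was in 9.98% of the 32851 RefSeq windows of this length, and the strict CArG box was in 1.63% of them and in 0 of the 7. GGGCGG was in the windows of Slc2a1, Flt1 and Cldn5 and in 35.7% of all windows, and TATAAA in those of Slc2a1, Flt1 and Vtn and in 13.6%. TGACGTCA was in the Flt1 window and in 1.79% of all windows. No marked matches overlap in the 4 printed windows, and a match is a description of the letters, not of binding.

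The meninges held the highest median level of 8 of the 9 vessel genes. The exception was Slc2a1, which was higher at the ventricle lining than in the meninges in 3 of 4 sets, beyond counting error in 2. The rule called a gene higher or lower in an area where its CPM was 1.5-fold above or below that of all other spots in every set with at least 20 spots of the area, among the 10144 genes whose level averaged 10 CPM or more over the sets. Pecam1 and Acta2 were under that minimum, so 7 of the 9 were tested. All 7 tested were called higher in the meninges, where 3.81% of all tested genes were, and without the minimum all 9 were, where 6.73% of 19399 genes were. The median ratio was 2.69 over the 7 and 0.972 over all tested genes.

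Acta2 had the highest of these ratios. Its level in the meninges was 73.3, 127, 106 and 170.4 CPM in sets 1 to 4, against 6.68, 8.19, 4.14 and 7.80 CPM in all other spots. The ratios were 11.0 (95% interval 9.52 to 12.6), 15.6 (13.5 to 17.9), 25.6 (22.3 to 29.3) and 21.8 (18.2 to 26.0). Every set thus had meningeal Acta2 at least 11.0 times the rest, and the 2 groups of values did not overlap. The order of sets by ratio was not that by level, since set 3 had the highest ratio and set 4 the highest meningeal CPM.

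Vitronectin followed. Vtn reached 109, 196, 118 and 204 CPM in the meninges of sets 1 to 4, against 25.8, 22.8, 18.3 and 26.2 CPM elsewhere. The ratios ran from 4.23 (3.78 to 4.71) in set 1 to 8.57 (7.67 to 9.55) in set 2. Pdgfrb, a gene of mural cells and also of fibroblasts, read 37.9, 95.5, 36.6 and 103 CPM in the meninges and 14.9, 19.6, 14.5 and 22.6 CPM elsewhere. Its ratios were near 2.5 in sets 1 and 3 (2.54 and 2.52) and higher in sets 2 and 4 (4.88 and 4.57). Rgs5 differed less between sets, with ratios of 2.27, 2.63, 2.57 and 3.12.

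Among the endothelial genes, Cldn5 had the highest ratios. It stood at 143, 299, 118 and 297 CPM in the meninges and 45.8, 61.8, 29.4 and 70.3 CPM in other spots, for ratios of 3.12 (2.84 to 3.42), 4.84 (4.44 to 5.26), 4.03 (3.61 to 4.49) and 4.22 (3.72 to 4.77). Meningeal Flt1 was 2.18 to 2.98 times the rest, Pecam1 2.41 to 3.74 times, Slco1a4 2.15 to 2.62 times and Slc2a1 1.77 to 3.25 times. Set 1 gave the lowest ratio for 8 of the 9 genes here, Pdgfrb being lowest in set 3.

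The other vessel genes, from lists of 28 endothelial, 9 pericyte, 9 smooth muscle and 8 ligand genes, were read in the same way. In the meninges 12 of 17 tested endothelial genes were higher, where 3.81% of all tested genes were. Cdh5 (VE-cadherin) was at 4.08 to 6.87 times the rest and the efflux pump gene Abcb1a at 2.43 to 3.69 times. Of 5 tested pericyte genes 3 were higher, Higd1b, Atp13a5 and Notch3, the last of them at 2.43 to 4.22 times. Both tested smooth muscle genes were higher, Myl9 at 3.75 to 8.70 times and Tpm2 at 3.91 to 6.63 times, and 0 of 4 tested ligand genes were. Markers of other cells moved with these values. All 5 tested fibroblast genes were higher there, and the summed level of the 6 listed was 1026 to 2491 CPM in meningeal spots against 200.3 to 334 CPM in whole sections. Meningeal spots had been chosen by Dcn, Slc6a13, Aldh1a2, Lum, Ogn, Slc22a6 and Col1a1, fibroblast genes among them. The high fibroblast list thus follows in part from that choice and is not a separate observation. The 6 microglia and macrophage genes summed to 246 to 278 CPM against 87.9 to 116, with 1 of 3 tested genes higher, and the 4 blood genes in the table to 74.2 to 295 CPM against 6.09 to 127, with 2 of 2 higher. Of the 4 astrocyte end-foot genes 2 were higher, at a summed 1263 to 1659.6 CPM against 652 to 884, and 0 genes of any of these lists were at 0 in the meninges. Their part in the result was not tested.

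Depth moved with the area as well. Meningeal spots had medians of 37593, 17851, 27860 and 7322 counts in sets 1 to 4, so CPM there divides by a smaller total. In counts per spot, a comparison chosen after the data were seen, 3 of 7 were 1.5-fold higher in every set: Cldn5 (1.67 to 2.53), Pdgfrb (1.58 to 2.49) and Vtn (2.96 to 4.37). Here and below, no share over all tested genes is given for counts per spot, so such counts of genes have no background beside them. Acta2, outside the 7, was 7.70 to 16.1 times the rest on this scale. Slco1a4 was at 0.995 in set 4, whereas the other 8 genes were above 1 in all 4 sets, Slc2a1 at 1.05 to 1.66.

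**Figure D1:**
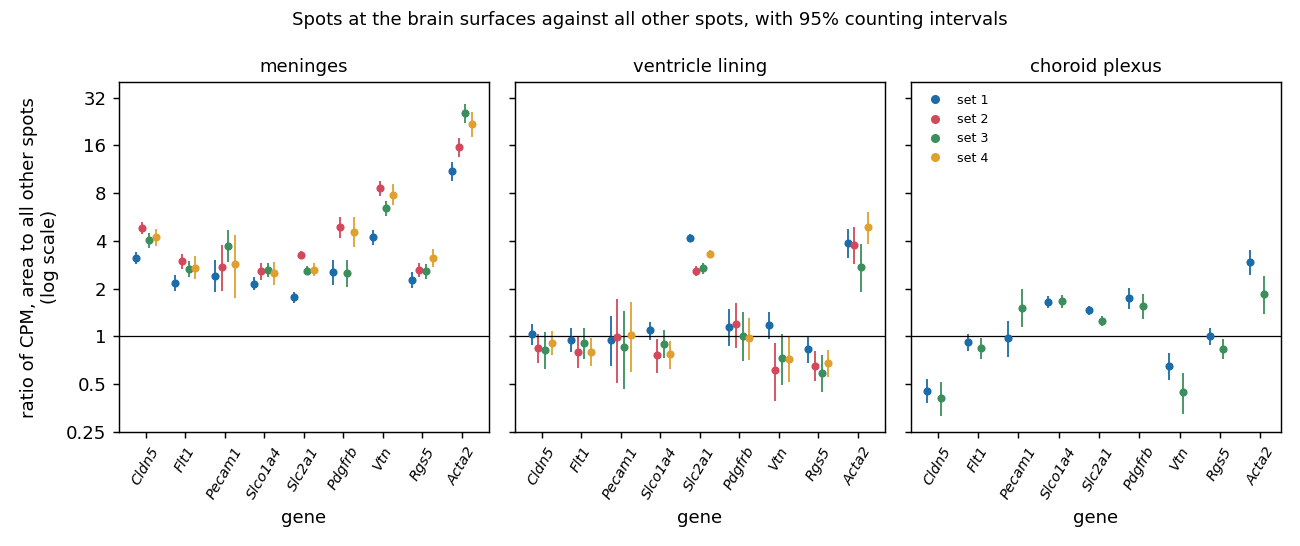
Ratio of CPM in meningeal, ventricle lining and choroid plexus spots to CPM in all other spots of the same barcode set (log scale), for each gene; points are sets 1 to 4 (choroid plexus: sets 1 and 3) and bars are 95% counting intervals. Every gene lies above 1 in the meninges, Slc2a1 and Acta2 stand apart at the ventricle lining, and Cldn5 and Vtn lie below 1 in the choroid plexus.

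At the ventricle lining, where ependymal cells border the cerebrospinal fluid, the vessel genes parted. Slc2a1 reached 452, 471, 291 and 612 CPM in sets 1 to 4, against 108, 182, 108 and 184 CPM in all other spots. The ratios were 4.19 (3.97 to 4.42), 2.58 (2.40 to 2.78), 2.68 (2.48 to 2.91) and 3.33 (3.14 to 3.53), and the lining spots were higher in all 4 sets. It was the only 1 of the 7 tested that was called there, where 7.98% of all tested genes were called higher. After spots were thinned to 10000 counts, 88.1% to 98.9% of lining spots held an Slc2a1 count, against 63.8% to 79.2% of spots in the striatum. In counts per spot the Slc2a1 ratio at the lining was 1.67 to 4.17.

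Acta2, below the minimum level, read 29.1, 37.5, 16.0 and 42.2 CPM at the lining and 7.51, 9.91, 5.85 and 8.69 CPM elsewhere, ratios of 2.74 to 4.86. It was called higher once the minimum was dropped, where 13.3% of all genes were. It rested on 35 to 98 counts per set. The remaining genes were not called. Cldn5 was at 0.826 to 1.03 times the rest, Flt1 at 0.798 to 0.951, Slco1a4 at 0.760 to 1.09, Pdgfrb at 0.975 to 1.19, Vtn at 0.610 to 1.18 and Rgs5 at 0.589 to 0.828. Among the 28 tested genes of the other vessel lists, Slc16a1, a carrier of lactate, and Myl9 were higher at the lining, where 7.98% of all tested genes were. Cd34, Tpm2 and Apln were lower, where 5.91% of all tested genes were. These counts were not far from the shares over all genes. Other lists moved with these: the 4 astrocyte end-foot genes summed to 1517 to 1839.9 CPM at the lining, with 2 of 4 higher, and the fibroblast list to 217 to 698 CPM, with 1 of 5 higher. Their part was not tested.

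In the choroid plexus, which was read in sets 1 and 3 only and whose vessels lack a tight barrier, 2 of the 7 tested genes were called higher and 2 lower. Cldn5 was at 22.0 and 12.8 CPM in sets 1 and 3, against 48.5 and 31.6 CPM in other spots, ratios of 0.454 (0.381 to 0.536) and 0.407 (0.315 to 0.516). Vtn was at 18.0 and 9.07 CPM against 27.7 and 20.5 CPM, ratios of 0.648 and 0.443. These were the 2 of 7 called lower, where 27.2% of all tested genes were, so the lower calls were near the background. Slco1a4 was at 98.3 and 86.2 CPM against 59.6 and 52.0 CPM, ratios of 1.65 and 1.66, and Pdgfrb at 25.9 and 22.7 CPM against 14.9 and 14.7 CPM, ratios of 1.74 and 1.55. These were the 2 of 7 called higher, where 9.18% of all tested genes were. Acta2, below the minimum level, was at 21.7 and 10.8 CPM against 7.40 and 5.82 CPM, ratios of 2.93 and 1.85. It was called higher once the minimum was dropped, where 17.9% of all genes were.

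Among the other endothelial genes in the same area Kdr, a receptor for vascular endothelial growth factor, was 3.25 and 3.91 times the rest, and Eng, Podxl and Bsg were also higher. Abcb1a (0.375 and 0.417), the lipid carrier gene Mfsd2a (0.353 and 0.416), the amino acid carrier gene Slc7a5 and Cd34 were lower, so that 4 of 17 endothelial genes were higher, where 9.18% of all tested genes were, and 4 lower, where 27.2% were. Of 5 pericyte genes 3 were lower, Higd1b, Atp13a5 and Mcam. Choroid plexus spots were deep, with medians of 80101 and 54458 counts in sets 1 and 3. In counts per spot, which rise for any gene in deep spots, 3 of 7 were 1.5-fold higher. These were Slco1a4 at 2.17 and 2.68, Pdgfrb at 2.02 and 2.82 and Slc2a1 at 1.63 and 2.37, with no share over all genes to set beside them. On that scale 0 of 7 were 1.5-fold lower, with Cldn5 at 0.532 and 0.736 and Vtn at 0.579 and 1.05. With TMM or RLE scaling, or with the meninges out of the reference, 1 of 7 was called lower. The fibroblast list, 3 of whose 5 tested genes were higher and 1 lower, summed to 3767 and 4481 CPM there. Over whole sections of sets 1 and 3, Igfbp2 (167 and 139 CPM) and Igf2 (73.9 and 61.7 CPM) were the highest genes of that list. The sum can rest on few genes and is not a measure of fibroblasts, and its part was not tested.

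Within the brain tissue proper the areas lay closer together. White matter followed the meninges as the area with the highest level of Cldn5, Flt1, Pecam1 and Vtn, but 0 of 7 genes were called higher there, where 7.70% of all tested genes were, and 0 lower, where 10.3% were. The ratios of white matter to all other spots were 1.15 to 1.26 for Cldn5, 1.27 to 1.40 for Flt1, 1.16 to 1.52 for Slco1a4, 1.41 to 1.65 for Slc2a1 and 1.34 to 1.67 for Pdgfrb. Rgs5 was at 0.970 to 1.11. White matter spots were shallow, with medians of 36345, 21930, 23694 and 17822 counts in sets 1 to 4, and in counts per spot all 9 genes were below 1 in all 4 sets, from a median of 0.385 for Acta2 to 0.895 for Slc2a1. Counts per spot fall for any gene in shallow spots, and no share over all genes is given on that scale. The direction of these ratios thus depended on the scale. The pericyte list genes Cspg4, also a marker of oligodendrocyte precursors, and Mcam were called higher in white matter.

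**Figure D2:**
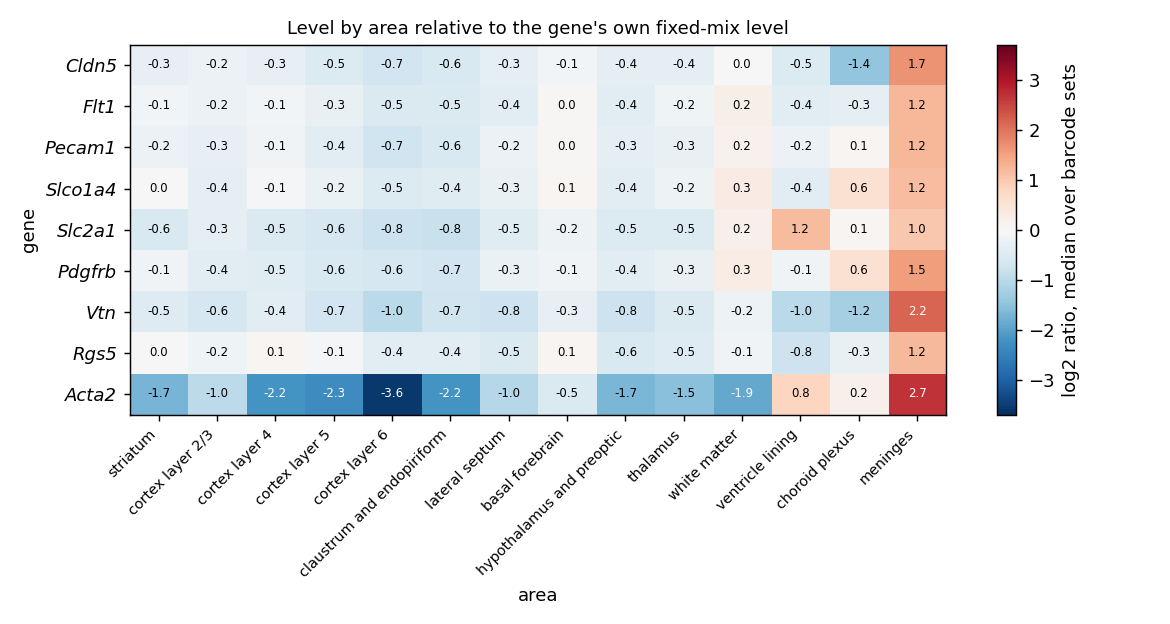
Level of each gene in each of the 14 areas, as the log2 ratio to the same gene's level averaged over the 11 areas present in every set, with the median over barcode sets printed in each cell. The meninges column is the highest for all genes except Slc2a1, which is highest at the ventricle lining, and layer 6 is among the lowest areas for most genes.

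The order of areas could be read only in part. For Cldn5 the meninges led with 118 to 299 CPM, above white matter beyond counting error in 4 of 4 sets. White matter (38.1 to 82.7 CPM) came next and was above the basal forebrain (38.5 to 76.9 CPM) in 2 of 4 sets, beyond counting error in 0. The striatum, the area of interest of the study, held Cldn5 at 35.7 to 67.1 CPM, Flt1 at 46.0 to 61.7, Slc2a1 at 102 to 159 and Rgs5 at 47.8 to 92.6 CPM. Of the 7 tested genes 0 were called higher there, where 6.09% of all tested genes were, and 0 lower, where 12.4% were. For Flt1 and Rgs5 striatal levels were 0.941 and 1.02 times the fixed-mix level, which is the mean over the 11 areas present in every set, at the median of the sets. The claustrum and endopiriform area and layer 6 held the lowest 2 places for Flt1, Pecam1, Slco1a4, Slc2a1 and Pdgfrb, and these 2 areas were not apart in every set for any of them. For Acta2 layer 6 was lowest at 0.994 to 2.79 CPM, and layer 5, next above it at 2.34 to 4.90 CPM, was higher with the interval above 1 in 4 of 4 sets. Without the minimum, Acta2 was called lower than in all other spots in layer 5, where 10.8% of all genes were, and in layer 6, where 8.08% were. In the other 9 areas of the tissue 0 of 7 were called in either direction, where 0.976% to 9.26% of all tested genes were.

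In the cortex, layer 4 was set beside layer 6, a pair chosen after the levels by area had been seen. By the median over sets of the level relative to the fixed mix, layer 5 lay between layers 4 and 6 for all 9 genes. Layer 2/3 was above layer 4 for Cldn5, Slc2a1, Pdgfrb and Acta2 and below it for the other 5. For Cldn5 these medians were 0.855 in layer 2/3, 0.807 in layer 4, 0.708 in layer 5 and 0.609 in layer 6, and for Flt1 they were 0.861, 0.937, 0.833 and 0.689. Cldn5 read 45.5, 66.6, 29.7 and 77.2 CPM in layer 4 of sets 1 to 4, and 36.0, 40.3, 24.3 and 52.7 CPM in layer 6. The ratios were 1.27 (1.11 to 1.44), 1.66 (1.43 to 1.91), 1.23 (1.06 to 1.41) and 1.47 (1.27 to 1.69). Layer 4 was the higher in all 4 sets, although the levels of the 2 layers overlap when sets are pooled.

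Flt1 was at 41.1, 68.6, 40.1 and 74.4 CPM in layer 4 and 31.6, 48.5, 30.9 and 49.7 CPM in layer 6, ratios of 1.30 to 1.42 in sets 1 to 3 and above these in set 4 (interval 1.29 to 1.73). Rgs5 was at 43.0, 107, 54.1 and 101 CPM against 34.8, 68.8, 39.3 and 68.4 CPM, ratios of 1.24 to 1.55. The Vtn ratios were 1.37, 1.23, 1.43 and 1.95, and the interval of set 2, 0.977 to 1.54, included 1. Slco1a4 ran from 1.22 to 1.47 and Slc2a1 from 1.10 to 1.39. Pdgfrb was the weakest, at 1.03 (0.783 to 1.34), 1.32, 1.25 and 1.08 (0.833 to 1.39), with the intervals of sets 1 and 4 including 1.

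All 7 tested genes were thus above layer 6 in every set, where 27.9% of all tested genes were. At 1.2-fold there were 5 of 7, Cldn5, Flt1, Slco1a4, Vtn and Rgs5, where 9.41% of all genes were. The median ratio was 1.36 over the 7 and 0.999 over all tested genes. Pecam1 and Acta2, below the minimum level, were also above in every set, where 19.6% of all genes were without the minimum, at 1.21 to 2.03 and 1.22 to 5.31, but Acta2 rested on 16 to 63 counts in layer 4 and 17 to 24 in layer 6. In counts per spot 7 of 7 were above layer 6 in every set as well, Cldn5 for example at 3.17, 3.06, 2.04 and 2.34 counts per layer 4 spot and 2.47, 1.84, 1.41 and 1.65 per layer 6 spot. Layer 4 spots had medians of 68978, 46474, 67654 and 30406 counts in sets 1 to 4, against 65728, 43890, 59107 and 32010 in layer 6. They were thus deeper in sets 1 to 3 and shallower in set 4. On this scale no share over all genes is given.

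The wider lists were above layer 6 for 8 of 17 endothelial genes, 3 of 5 pericyte genes, 1 of 2 smooth muscle genes and 3 of 4 ligand genes in every set. Over all tested genes the share was 27.9%, and the shorter lists hold too few genes to be set against it. The 3 ligands were Vegfa and Vegfb, growth factors for endothelium, and Apln, the ligand of the apelin receptor. Values that moved with these were those of the end-foot list, with 3 of 4 genes above layer 6 and a summed 514 to 711 CPM against 401 to 532, and of the fibroblast list, with 3 of 5 and 175 to 247 CPM against 77.3 to 108. Microglia and macrophage genes had 0 of 3 and 82.8 to 101 CPM against 75.7 to 89.5. Their part was not tested.

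**Figure D3:**
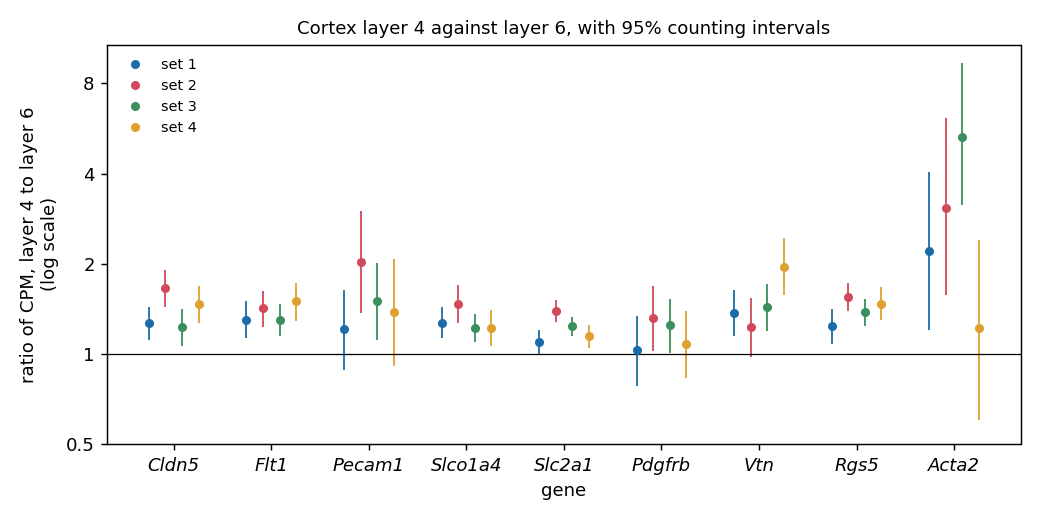
Ratio of CPM in cortex layer 4 to CPM in layer 6 (log scale) for each gene; points are barcode sets 1 to 4 and bars are 95% counting intervals. All points lie above 1, and the intervals of Pecam1, Pdgfrb, Vtn and Acta2 include 1 in some sets.

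The barcode sets also differed from each other. At the fixed mix of areas, Cldn5 was at 55.7, 83.7, 38.0 and 90.7 CPM in sets 1 to 4, and at 47.6, 66.0, 31.0 and 72.6 CPM over whole sections. Set 3 was lowest and set 4 highest, 2.39 times apart. Rgs5 was at 44.7, 93.6, 50.1 and 96.4 CPM, 2.15 times from lowest to highest, with sets 1 and 3 low and sets 2 and 4 high. Slc2a1, at 142, 245, 143 and 249 CPM, and Pdgfrb, at 16.5, 27.2, 16.6 and 29.6 CPM, put the sets in the same order. Flt1 was at 46.6, 69.2, 46.1 and 69.7 CPM, with sets 1 and 3 again the low ones.

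The remaining genes varied less or rested on fewer counts. Slco1a4 was at 64.1, 62.7, 59.7 and 72.0 CPM, 1.21 times from lowest to highest, and Pecam1 at 11.3, 9.06, 8.99 and 9.62 CPM, 1.26 times. Vtn was at 34.0, 38.2, 28.3 and 42.5 CPM and Acta2 at 14.1, 20.8, 14.5 and 25.2 CPM. Over all tested genes the highest set was at the median 1.39 times the lowest, and the 95th percentile was 2.38, so Cldn5 lay just above that percentile and Slco1a4 and Pecam1 below the median.

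Pair by pair, 4 of 7 genes, Cldn5, Slc2a1, Pdgfrb and Rgs5, were 1.5-fold lower in set 1 than in set 2, where 9.13% of all tested genes were. The same 4 were lower in set 1 than in set 4, where 10.6% were. Set 2 was higher than set 3 for these 4 and Flt1, where 7.75% of all genes were, and set 3 was lower than set 4 for these 5 and Vtn, where 9.30% were. Between sets 1 and 3, and between sets 2 and 4, 0 of 7 were apart, where 1.37% and 0.503% of all genes were higher in the set named first and 1.04% and 0.887% lower. The 6 pairs share sets and are not independent of each other. Over whole sections the ratio of set 1 to set 2 was 0.721 for Cldn5 and 0.733 for Pdgfrb, and that of set 2 to set 3 was 1.40 for Pdgfrb and 1.49 for Flt1, all of them short of 1.5-fold, as was Vtn at 0.720 for set 3 to set 4.

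The differences ran through the tissue and were not those of a single area. Cldn5, Flt1, Slc2a1, Pdgfrb and Rgs5 were lower in set 1 than in set 2 in each of the 11 areas, where 20.9% of all tested genes were, and lower in set 1 than in set 4 in each, where 24.4% were. They were higher in set 2 than in set 3 in each of the 11 areas, where 19.9% of all genes were, and lower in set 3 than in set 4, as was Slco1a4, where 21.6% were. Slco1a4 was higher in set 2 than in set 3 in 8 of 11 areas and higher in set 1 than in set 2 in 5 of 11.

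Not all vessel genes shared this order. Higd1b, Notch3, Myl9 and Tpm2 were 1.5-fold lower in set 1 than in set 2 and lower in set 1 than in set 4, whereas Abcb1a, at 27.9, 17.5, 23.5 and 15.0 CPM at the fixed mix, and Slc16a1, at 46.4, 9.69, 30.1 and 16.1 CPM, were higher in set 1 than in either. Of all tested genes 14.8% were 1.5-fold higher in set 1 than in set 2, and 16.5% higher in set 1 than in set 4. Of 17 tested endothelial genes 1, Cdh5, was lower in set 1 than in set 2, where 9.13% of all tested genes were. In set 1 against set 4, 0 of the 17 were lower, where 10.6% of all tested genes were. These 2 counts were not far from the shares over all genes. Depth per spot was lower in sets 2 and 4, at medians of 38181 and 26444 counts, than in sets 1 and 3, at 52481 and 44966. The blood genes summed to 10.2, 26.2, 6.09 and 127 CPM over whole sections, with 0 of the 4 genes at 0 in any set. The part of depth and of blood in these differences was not tested, and set, animal, section and library cannot be told apart.

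**Figure D4:**
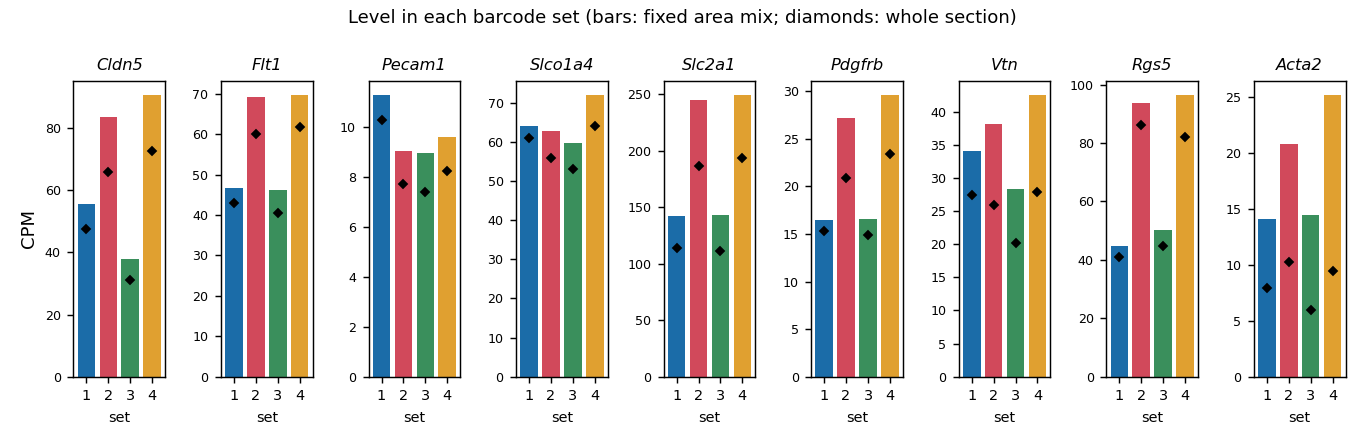
Level of each gene in barcode sets 1 to 4 in CPM, on an axis of its own that starts at 0; bars are levels at the fixed mix of 11 areas and diamonds are whole-section levels. Cldn5, Flt1, Slc2a1, Pdgfrb and Rgs5 are higher in sets 2 and 4 than in sets 1 and 3, and Pecam1 and Slco1a4 are nearly level.

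The genes also differed in how their counts were spread over spots. With each spot thinned to 10000 counts, Slc2a1 had a count in 65.6% (63.9% to 67.3%), 80.9%, 66.7% and 81.1% of spots in sets 1 to 4, and Rgs5 in 33.0%, 54.3%, 35.0% and 50.6%. Cldn5 had a count in 37.1%, 46.8%, 27.0% and 47.9%, and Pecam1 in 7.23% to 10.6%. Without thinning, shares were 97.8% to 98.9% for Slc2a1 and 71.1% to 85.2% for Cldn5, so shares depend on depth and are not shares of tissue with vessels.

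Acta2 stood apart in this respect. It had a count in only 5.44% (4.66% to 6.30%), 7.08% (6.16% to 8.10%), 4.48% (3.81% to 5.22%) and 6.33% (5.51% to 7.25%) of the thinned spots, yet single spots held up to 16 counts. The richest 1% of spots held 46.5%, 39.5%, 56.4% and 39.8% of its counts, against 14.9% to 19.6% for Pecam1, which had counts in the next fewest spots. The variance over the mean was 2.94 to 4.74 for Acta2 and 0.980 to 1.08 for Pecam1, a ratio near 1 being that of counts scattered at random over spots. By area, Acta2 was found in 27.2% to 46.2% of thinned meningeal spots and in 0.608% to 1.97% of layer 6 spots.

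**Figure D5:**
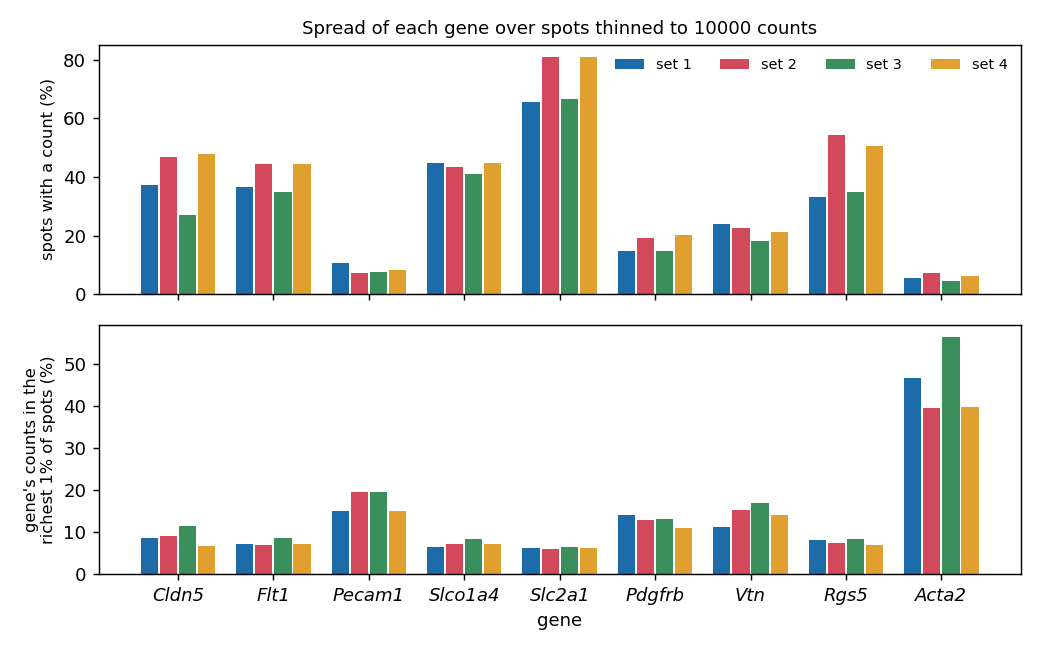
Share of spots with a count (upper panel, %) and share of a gene's counts held by the richest 1% of spots (lower panel, %), for spots thinned to 10000 counts in barcode sets 1 to 4. Acta2 has counts in the fewest spots, with Pecam1 next, and 39.5% to 56.4% of its counts lie in the richest 1% of spots.

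Spot by spot, after the mean of each area in each set was subtracted, correlations between the vessel genes were low. Random counting lowers r, and the unthinned variance over the mean was only 1.44 to 1.60 for Flt1 and 1.04 to 1.21 for Pecam1. A low r here therefore does not by itself mean a weak relation. Correlations are Pearson's r of log(counts per 10000 + 1), computed within each set over 12601 spots in all, which share library and depth, and are given as descriptions. Among the 9 genes the highest median r over sets was 0.28, between Cldn5 and Flt1, and the lowest 0.03, between Slco1a4 and Acta2. Outside the meninges, ventricle lining and choroid plexus, over 11792 spots, Cldn5 and Flt1 were at 0.27, Cldn5 and Slco1a4 at 0.25, and the mural pair Vtn and Rgs5 at 0.23.

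The 3 genes most like each of the 9 were sought among 10137 candidate genes, which did not include the 9 themselves. A pair within the 9, such as Cldn5 and Flt1 (0.28), could therefore not be named here. For Acta2 these were Eln (elastin, r = 0.57), Mgp (matrix Gla protein, 0.55) and Crip1 (0.52). Of the 9 smooth muscle list genes, most of them below the minimum level for this search, Tagln stood at 0.67, Myh11 at 0.57 and Myl9 at 0.48 with Acta2, and the others at 0.04 to 0.43. With Slco1a4 the same 9 genes were at 0.00 to 0.07, but with Cldn5 they reached 0.03 to 0.20 and with Rgs5 0.00 to 0.20. For Cldn5, Flt1 and Slco1a4 the candidate gene most alike was Itm2a, a membrane protein gene of the endothelial list, at 0.26, 0.24 and 0.26. Cldn5 and Flt1 were each more like the other, at 0.28. For Rgs5 the candidate most alike was Epas1, which encodes the hypoxia-inducible factor HIF-2 alpha, at 0.26, with Igfbp7 at 0.24.

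The other genes sat with markers of other cells. For Vtn the gene most alike was the transporter gene Slc6a20a (0.30), with Igf2 (0.27) and the collagen gene Col1a2 (0.26) next, and for Pdgfrb it was Slc6a20a (0.17), with Igf2 at 0.16. Igf2 and Col1a2 are in the fibroblast list. Slc2a1 was most like Pltp (0.27), Apoe (0.25) and the metallothionein gene Mt1 (0.25), and Pecam1 like Mgp (0.16), Igfbp7 and Fn1 (0.14 each). The median over all candidate genes was -0.01 and the 99th percentile 0.11. Of the 27 places, 4 were taken by genes of the vessel lists, which made up 0.276% of the candidates. Outside the meninges, ventricle lining and choroid plexus the gene most like Vtn was again Slc6a20a (0.23), now followed by the pericyte gene Higd1b (0.21), while for Acta2 it was Mgp (0.52).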

How the data were processed

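Counts per gene and spot were deposited by the authors as a single table of raw counts from Visium CytAssist sections, whole numbers throughout. Space Ranger and Seurat are named in the submitters' processing notes, without versions, and the aligner, genome build, probe set and spot filter are not given in the sources used here. Spots were assigned to the area whose markers had the highest mean z-score of log(counts per 10000 + 1), if at least 0.5. Of 75 markers, 74 were in the table, 5.08% of assigned spots had a margin under 0.1, and 83.7% got the same area by correlation with mean profiles.

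Counts were summed per area and set and scaled to CPM. Intervals are exact Poisson (levels), Clopper-Pearson (shares) and conditional binomial (ratios) at 95%. The genotype tests that were planned need each section's genotype and were not run. Genes named are the 9, the 3 most like each, list genes called in an area and Celsr3; others, among them genes that differed between sets or layers and the smooth muscle genes set beside Acta2, were chosen after their values were seen. The 9 genes, the lists and the comparisons were chosen with earlier results of these data known. Some results under the most-like rule are not reported here. The steps across genes were tested on simulated data. Python 3.11.15, numpy 2.4.6, scipy 1.17.1, matplotlib 3.10.9, and edgeR 4.0.16 in R 4.3.3 for TMM and RLE factors were used. Alternatives were other area scores and depth minimums, scalings, folds, no minimum level, other thinning, rank correlation and each set left out.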

Additional observations from a re-analysis of the deposited data

How the results depend on the processing

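No paired analysis was possible because the barcode sets carry no replicate number or animal; the planned genotype fits with edgeR and DESeq2, with a replicate block or leaving out animals, were therefore not made. Of the counts of genes called, 476 values under an alternative were within 1.5 times the main value and 17 were not. Without the minimum level, Acta2 added 1 gene called lower in layer 5, 1 lower in layer 6 and 1 higher in the choroid plexus. It also brought the ventricle lining to 2 higher. With areas set by correlation, 1 gene was higher in white matter. In the choroid plexus, where 2 were higher and 2 lower, a fold of 2 left 0 higher and 1 lower, TMM, RLE and the reference without meninges and choroid plexus left 1 lower each, and counts per spot left 0 lower. Counts per spot left 3 of 7 higher in the meninges. A fold of 2 left 1 gene apart in each of the set pairs 1 and 2, 1 and 4, 2 and 3, and 3 and 4, in place of 4, 4, 5 and 6. Of the most-like genes, 4 lay in the vessel lists, 8 by Spearman's correlation and 7 without set 4, and over each set left out the count ran from 4 to 7. Of the 27 named, 16 were named again by Spearman's correlation and 19 to 23 with a set left out. With each set left out, 7 remained the count higher in the meninges and above layer 6 in layer 4, 1 at the ventricle lining, and 2 higher and 2 lower in the choroid plexus. A minimum score of 1 left 6 of 7 above layer 6. Of log2 ratios of single genes, 1456 stayed within their counting interval, 182 moved further and 0 of the called ones changed sign. All 72 shares of spots at other thinning moved. The cause of these shifts was not tested, apart from those fixed by the fold, the minimum or the thinning. Pecam1 and Acta2 rest on few counts per area, and spots at 10000 counts left out 168 of set 4.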
